A study of Mus musculus with 6 samples.

Results

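The unfolded protein and integrated stress response was examined here through a list of 36 genes, comprising stress sensors, their transcription factors, endoplasmic reticulum (ER) chaperones, degradation factors and ATF4-dependent genes. Members were found by matching the symbols that the platform annotation gives to the probe sets of the deposited table, and 35 of the 36 were measured among 23279 named genes. Phgdh, which encodes the first enzyme of serine synthesis, was not analysed here. Expression had been measured on 6 arrays in myoblasts cultured from limb muscles of mice, the dividing cells that fuse into muscle fibres, on the C57bl6N strain. All cultures carried Pax7-CreERT2, a tamoxifen-inducible recombinase driven by the muscle stem cell gene Pax7, and the allele labelled Beta-cetenin-Exon3-loxP/+, in which exon 3 of beta-catenin is flanked by loxP sites. In the 3 activated cultures 4-OH tamoxifen in ethanol removed that exon and left a form of beta-catenin labelled active, while the 3 control cultures received ethanol alone, each during differentiation in 2% HS for 24 hours. For all 6 cultures the sample records also list 5 passages, 20% FBS and the growth factor bFGF at 2 ng per ml. The drug and the recombination cannot be told apart in this design. The sources used here do not give the share of cells recombined, the dose or the age of the animals, and the labels call the cultures independent without saying whether each came from a separate animal.

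The unfolded protein response is triggered when misfolded proteins accumulate in the ER. Its sensors are the kinase PERK (encoded by Eif2ak3), the kinase and endonuclease IRE1 (Ern1), which splices the Xbp1 transcript, and ATF6, a membrane-bound factor that is released by cleavage. PERK shares its substrate, the translation factor eIF2alpha, with other kinases that sense amino acid shortage, haem shortage or viral RNA. Phosphorylation of that factor lowers general translation while allowing translation of ATF4, and this shared arm is called the integrated stress response. Signalling through ATF6 is known to accompany myoblast differentiation. A probe set that summarizes a whole gene reports neither Xbp1 splicing nor ATF6 cleavage nor ATF4 translation.

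At an adjusted p of 0.05 no stress response gene was called between activated and control cultures (limma, a linear model that shares variance across genes; 0 of 35 members, smallest adjusted p = 0.301), nor was any of the 23279 genes (0.0% called, with 7.86% at an unadjusted p under 0.05). The differences with the smallest p were higher values in activated cultures of the cystine transporter gene Slc7a11 (2.57-fold), the ER sensor Atf6 (1.80-fold), the eIF2alpha phosphatase subunit Ppp1r15a (2.42-fold) and the degradation factor Sel1l (1.93-fold). These 4 members had an unadjusted p under 0.05 in limma, or 11.4% of members, all higher, against 4.44% of all genes higher and 3.42% lower at that level. When only genes at or above the median signal level were fitted, the same 4 members were at that level. The shares of those brighter genes were 6.63% higher and 3.38% lower. The stress mediator Ddit4 was lower in activated cultures on every array, and the classical ER chaperones Hspa5, Hsp90b1, Calr and Canx overlapped between the groups. Of all genes, 5.40% had every activated array above every control array and 7.40% had every one below. The count of members at an unadjusted p under 0.05 was 2 without activated replicate 2 and 8 without control replicate 2, all higher. The shares of all genes moved too, to 2.24% higher and 1.65% lower in the first case and 6.84% and 6.33% in the second. With the replicate number of the sample titles as a block, which sets each activated array against the control array of the same number, 8 members were higher and 1 was lower at an unadjusted p under 0.05 (9.63% and 7.01% of all genes), and again 0 passed adjustment (smallest adjusted p = 0.0704), against 31 genes or 0.133% of all. In these bulk cultures fewer cells expressing a gene and less RNA per cell cannot be told apart.

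**Figure D1:**
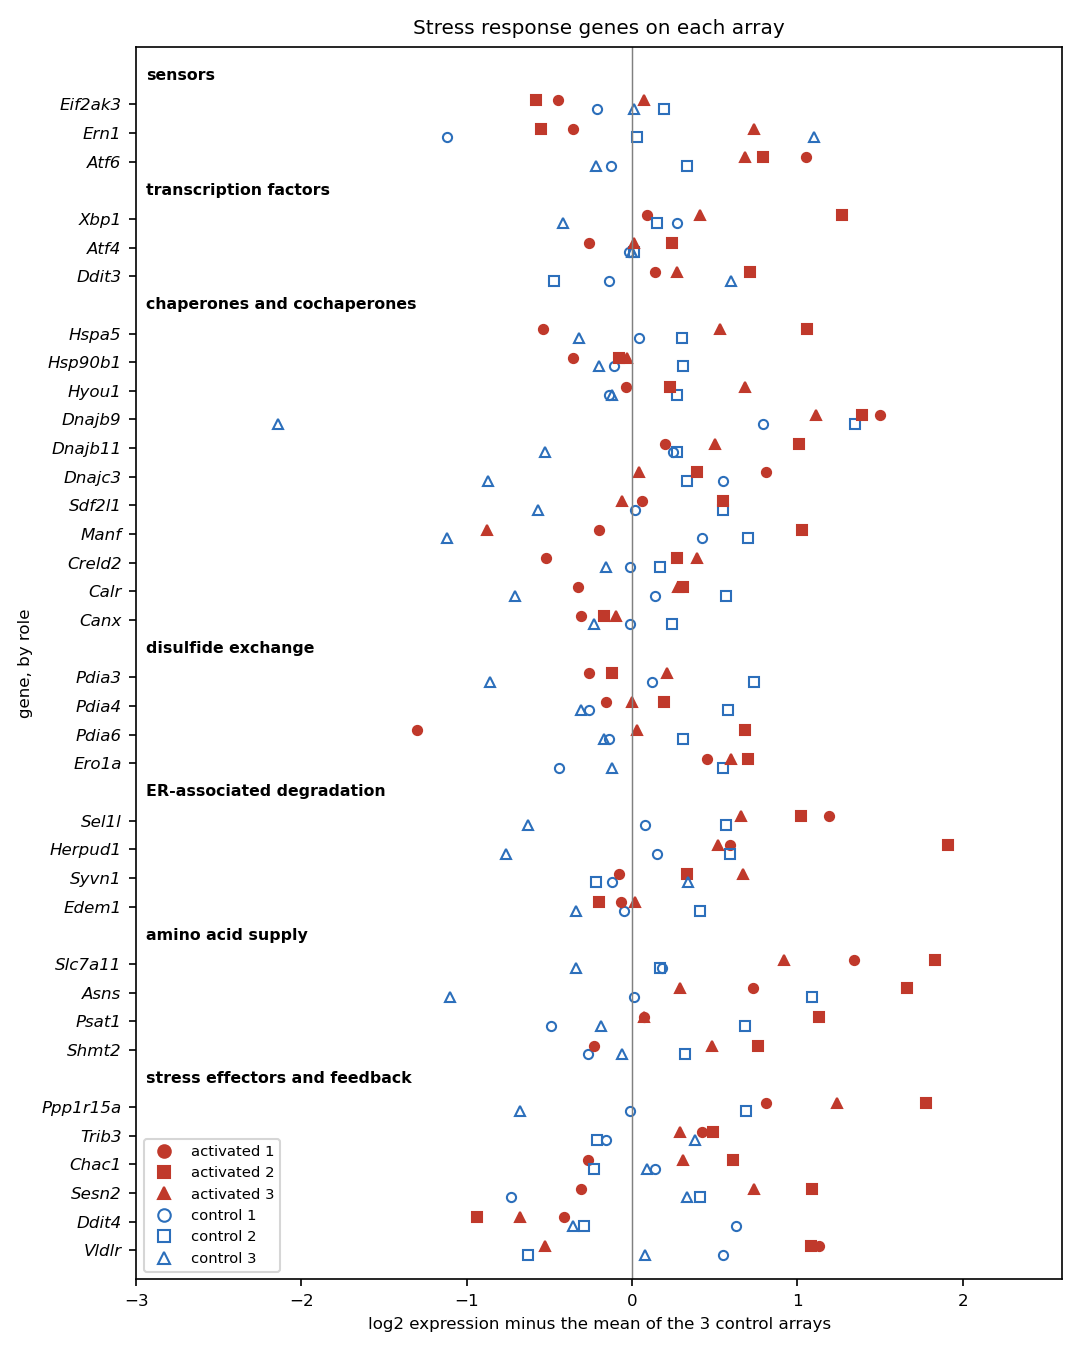
Log2 expression of each of the 35 measured stress response genes on each array, given as the difference from the mean of that gene's 3 control arrays, with genes grouped by role. Filled red symbols are activated and open blue symbols control cultures, and the symbol shape is the replicate number. All red symbols lie right of all blue ones for Atf6, Sel1l, Slc7a11 and Ppp1r15a and left of them for Ddit4, and control replicate 3 stands far to the left for Dnajb9.

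Promoter sequence was considered because the members fall under different transcription factors. RefSeq promoter windows (GRCm38.p6, 250 bases before to 50 after an annotated start, written 5′ to 3′ on the strand of the gene) were found for 32 of the 35 measured members. They were searched on both strands for the ER stress response element (CCAAT, 9 free bases, CCACG), bound by ATF6 with the CCAAT factor NF-Y. They were also searched for the ER stress response element II (ATTGG, 1 free base, CCACG), the unfolded protein response element TGACGTGG and the C/EBP-ATF composite element TGATGNAAN, the kind of site that ATF4 binds. The ER stress response element and its variant II share the letters CCACG and, read on opposite strands, CCAAT. Windows of 8 members held the first element (25.0% of 32, against 0.137% of 27025 genes with a window). The variant II was found in 2 members (6.25%, against 0.0444% of genes), the C/EBP-ATF element in 6 (18.8%, against 4.5% of genes) and the unfolded protein response element in 0 (0.714% of genes). A match is a description of letters and not evidence of binding in these cells. The ER stress response elements, shown so that their fixed ends can be compared, were these, each written in the orientation of the motif with fixed letters in capitals:
Calr: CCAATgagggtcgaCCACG
Canx: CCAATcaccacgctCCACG
Creld2: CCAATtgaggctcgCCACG
Dnajc3: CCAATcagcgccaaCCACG
Hsp90b1: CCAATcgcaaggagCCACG
Hsp90b1: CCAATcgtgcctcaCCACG
Hspa5: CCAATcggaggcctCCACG
Pdia6: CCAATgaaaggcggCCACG
Syvn1: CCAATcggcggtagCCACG
Hsp90b1 thus held 2 copies. The matches to the variant II, with the same marking, were:
Dnajb11: ATTGGcCCACG
Herpud1: ATTGGgCCACG
The matches to the C/EBP-ATF element were:
Asns: TGATGaAAc
Chac1: TGATGcAAc
Herpud1: TGATGcAAc
Slc7a11: TGATGcAAa
Slc7a11: TGATGcAAa
Trib3: TGATGtAAa
Vldlr: TGATGcAAc
Slc7a11 held 2 copies in opposite orientation, and Herpud1 was the member with both kinds of element.

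Whole windows are shown for 5 members that stand for the arms described below: Slc7a11 and Asns for the C/EBP-ATF element, Herpud1 for both kinds, and Hspa5 and Hsp90b1 for the ER stress response element. Motif matches are in capitals as they lie on the printed strand, so a match on the other strand reads as its reverse complement.
Slc7a11 (chr3:50443564-50443863, minus strand): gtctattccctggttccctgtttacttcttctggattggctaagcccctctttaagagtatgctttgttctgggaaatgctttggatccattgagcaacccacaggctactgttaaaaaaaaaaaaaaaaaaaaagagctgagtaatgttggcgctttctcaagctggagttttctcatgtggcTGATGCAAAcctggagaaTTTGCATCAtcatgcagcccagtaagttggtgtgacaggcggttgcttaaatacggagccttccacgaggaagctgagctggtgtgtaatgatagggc
Asns (chr6:7693160-7693459, minus strand): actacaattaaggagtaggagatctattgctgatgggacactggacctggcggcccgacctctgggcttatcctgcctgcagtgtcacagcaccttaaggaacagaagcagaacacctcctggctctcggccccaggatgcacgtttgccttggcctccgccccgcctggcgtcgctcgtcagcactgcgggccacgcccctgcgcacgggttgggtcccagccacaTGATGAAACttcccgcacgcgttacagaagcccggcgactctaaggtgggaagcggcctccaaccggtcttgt
Herpud1 (chr8:94386179-94386478, plus strand): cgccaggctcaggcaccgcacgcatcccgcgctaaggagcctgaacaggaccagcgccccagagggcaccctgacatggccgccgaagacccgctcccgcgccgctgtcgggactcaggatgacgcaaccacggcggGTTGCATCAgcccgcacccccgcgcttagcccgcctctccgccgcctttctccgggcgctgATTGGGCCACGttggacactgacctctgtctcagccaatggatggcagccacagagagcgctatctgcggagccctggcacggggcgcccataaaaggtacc
Hspa5 (chr2:34771840-34772139, plus strand): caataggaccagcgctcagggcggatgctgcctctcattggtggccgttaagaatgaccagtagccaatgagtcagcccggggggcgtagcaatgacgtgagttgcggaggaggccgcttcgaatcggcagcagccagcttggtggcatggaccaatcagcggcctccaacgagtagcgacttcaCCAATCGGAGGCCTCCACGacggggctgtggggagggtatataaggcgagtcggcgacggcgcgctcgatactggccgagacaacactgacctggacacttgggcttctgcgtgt
Hsp90b1 (chr10:86705395-86705694, minus strand): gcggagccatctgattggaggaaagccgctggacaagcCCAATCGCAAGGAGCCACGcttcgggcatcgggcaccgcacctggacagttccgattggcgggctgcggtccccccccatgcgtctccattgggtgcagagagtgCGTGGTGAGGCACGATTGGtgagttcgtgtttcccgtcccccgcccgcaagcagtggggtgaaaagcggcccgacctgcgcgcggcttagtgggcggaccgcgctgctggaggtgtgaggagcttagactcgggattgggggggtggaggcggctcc
The 6 members with a C/EBP-ATF element were all higher in activated cultures in the deposited values, with a median log2 difference of 0.73 and a range of 0.21 to 1.36. Of the 10 members with either ER stress response element 7 were higher and 3 lower, with a median of 0.20 and a range of -0.20 to 1.01. The 17 members with no match had 12 higher and 5 lower values and a median of 0.34. Of all genes 40.3% were higher, and of those at or above the median level 58.7%. Each activated array exceeded the control array of the same number for 3 of the 6, 3 of the 10 and 8 of the 17 members. For Chac1, Trib3 and Vldlr, which hold a C/EBP-ATF element, the numbered pairs disagreed in sign. Herpud1 counts in both motif classes. These classes were formed with the values known, no test was made between them, and the medians are a description.

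**Figure D2:**
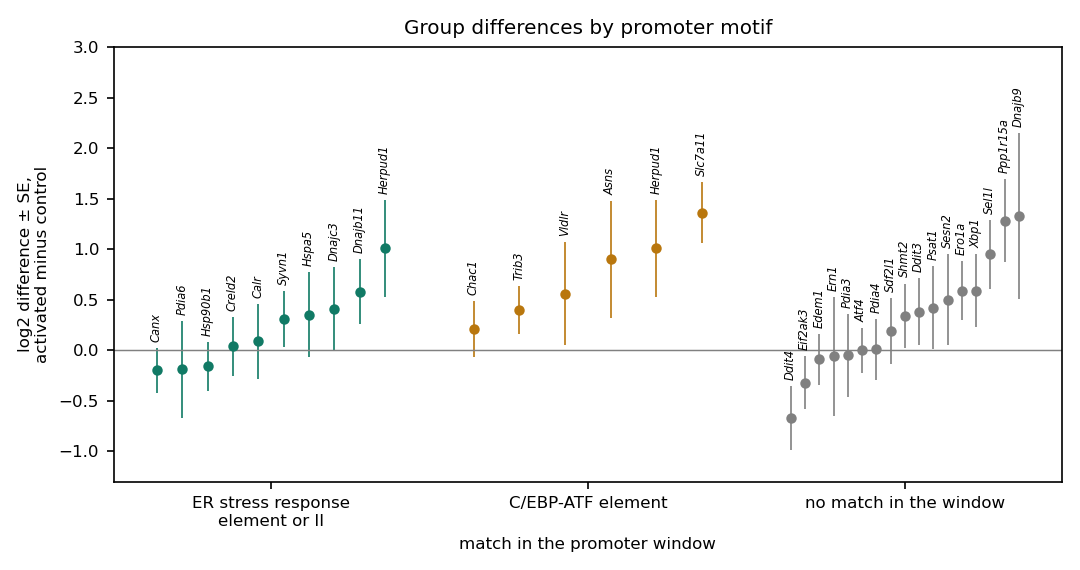
Log2 difference of activated minus control cultures (vertical axis; bars are limma's standard errors) for the 32 members with a promoter window, by the motif found in it. The 6 members with a C/EBP-ATF element lie at 0.21 to 1.36, and those with an ER stress response element at -0.20 to 1.01, the highest being Herpud1, which appears in both classes.

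Over the whole list, 26 of 35 members had a higher mean in activated cultures (74.3%) against 40.3% of all genes, with a median log2 difference of 0.34 against -0.08. Signal level moved with this count: 34 of the 35 members were at or above the median level of all genes, and of the genes in that brighter part 58.7% were higher, with a median of 0.12. After the arrays were quantile-normalized again 21 of 35 members were higher (60.0%), with a median of 0.10, against 48.2% and -0.01 for all genes. After cyclic loess 19 members were higher (54.3%) with a median of 0.11, where 49.6% of all genes and 50.5% of the brighter ones were higher. Median centring moved the member count the other way, with 30 of 35 members higher (85.7%) and a median of 0.47. All genes then stood at 55.7% and 0.04, and the brighter ones at 67.9% and 0.25. The spread of values over all probe sets (SD) was 1.88 to 2.12 on the activated and 1.72 to 2.01 on the control arrays. The list median therefore depended on scaling, and its share of higher members was nearer to the rest of the array once the arrays had equal spread. Across the numbered pairs the median difference of the members was 0.05 in pair 1, 0.38 in pair 2 and 0.51 in pair 3. In 14 members the activated array exceeded its control in all 3 pairs (40.0% of members, against 16.6% of all genes), and 1 member was lower in all 3 (2.86%, against 25.0%). Both shares of all genes include the dim genes, of which 78.1% had a lower mean in the deposited values. Pair shares for the brighter genes alone or after rescaling are not given here, so these counts are not set apart from signal level and scaling.

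**Figure D3:**
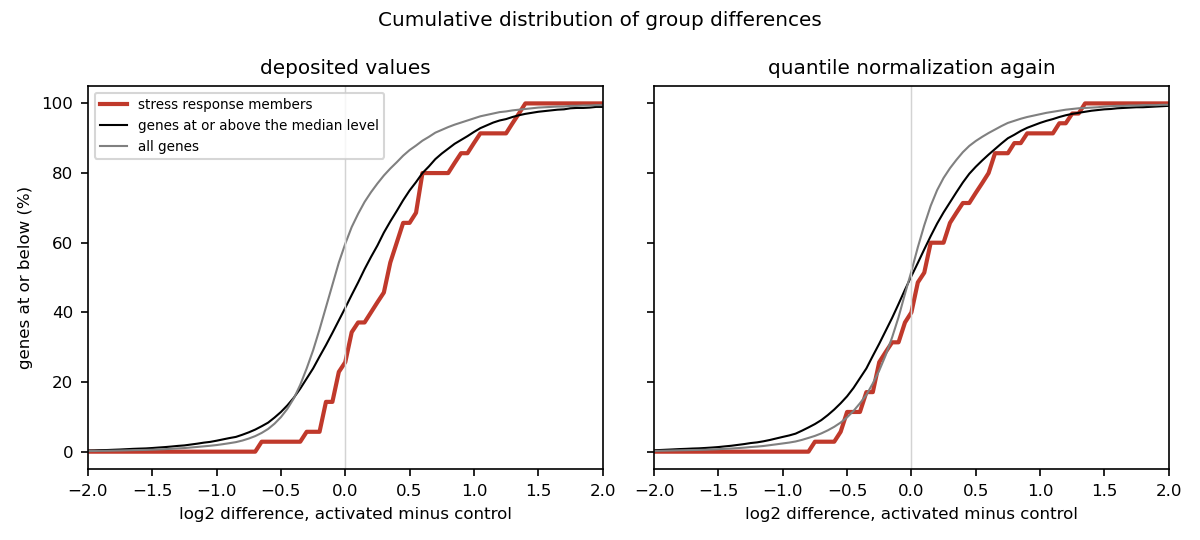
Cumulative share of genes (vertical axis, percent) at or below a given log2 difference of activated minus control (horizontal axis), in the deposited values at left and after quantile normalization again at right. The red line of the 35 members lies right of the lines of all genes and of genes at or above the median level around 0 in the deposited values (median 0.34, against -0.08 and 0.12), and closer to them after normalization (median 0.10).

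Single arrays weighed on many members. Activated replicate 2 held the highest value of 18 of the 35 members, where 28.3% of the brighter genes had their highest value. Control replicate 3 held the lowest value of 16 members, against 32.1% of the brighter genes, and it also correlated least with the remaining arrays over all probe sets (mean 0.895, against 0.923 to 0.946). Activated replicate 1 was lowest for 7 members, among them Hspa5, Hsp90b1, Canx and Pdia6. Without control replicate 3 the count of higher members was 22 (62.9%) and the median difference 0.26. In that setting 42.6% of all genes and 57.0% of the brighter ones were higher, with medians of -0.06 and 0.08. At an unadjusted p under 0.05 there were then 5 members higher and 1 lower (3.57% and 3.26% of all genes).

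Among the sensors, Atf6 had log2 values of 8.62, 8.36 and 8.25 in activated replicates 1, 2 and 3, against 7.44, 7.90 and 7.35 in the control replicates. Every activated array lay above every control array, which was so for 4 of 35 members and 5.40% of all genes. The difference was 0.84 ± 0.24 (SE; limma, adjusted p = 0.424, unadjusted p = 0.00926), and it was 0.57 after quantile normalization and 0.48 after cyclic loess. Ern1 was scattered in both groups, at 5.90, 5.71 and 7.00 in activated and 5.14, 6.29 and 7.36 in control cultures. Replicate 3 was the highest of each group, so the group difference of -0.06 ± 0.59 (SE) was far smaller than the spread between cultures. Eif2ak3 was at 4.19, 4.06 and 4.71 in activated and 4.43, 4.83 and 4.65 in control cultures, which overlap, with a difference of -0.32 and a 95% interval of -0.91 to 0.28.

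For each of the 3 transcription factors the groups overlapped, as they did for most genes of the array. Unadjusted p values in limma were 0.998 for Atf4, 0.141 for Xbp1 and 0.281 for Ddit3. Atf4, whose product drives the amino acid and feedback genes, was at 9.33, 9.83 and 9.60 in activated cultures and 9.57, 9.60 and 9.59 in control cultures. The control arrays were nearly equal and lay inside the activated range, giving a difference of 0.00 with a 95% interval of -0.51 to 0.51. The sign depended on scaling, with -0.35 after quantile normalization and -0.50 after cyclic loess. Xbp1, the factor activated by IRE1 splicing, was at 6.68, 7.86 and 7.00 in activated and 6.86, 6.74 and 6.17 in control cultures. Its difference of 0.59 ± 0.36 (SE) came from replicates 2 and 3, since activated replicate 1 lay below its control (pair difference -0.18). Ddit3, which encodes the pro-apoptotic factor CHOP, was at 6.65, 7.22 and 6.78 in activated and 6.37, 6.04 and 7.11 in control cultures. The groups overlapped through control replicate 3, and the difference was 0.38 ± 0.33 with that array and 0.68 without it.

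All 4 measured genes of amino acid supply had a higher mean in activated cultures and were higher in all 3 pairs. None of these 4 signs turned under the alternatives reported here. Slc7a11 encodes the light chain of the cystine-glutamate exchanger and is a target of ATF4. It was at 6.11, 6.60 and 5.69 in activated cultures and at 4.95, 4.94 and 4.43 in control cultures. The lowest activated array exceeded the highest control array, and the difference was 1.36 ± 0.30 (SE, 95% interval 0.66 to 2.06), with a limma adjusted p of 0.301 and 0.0704 with the replicate block. Over the normalizations, the dim-gene filter and the omission of each array the difference ran between 1.13 and 1.58. Asns, asparagine synthetase, was at 8.12, 9.05 and 7.68 in activated and 7.40, 8.48 and 6.29 in control cultures. The groups overlapped, while each activated array exceeded the control array of the same number, by 0.73, 0.57 and 1.39. The difference was 0.90 ± 0.58 (SE) with an unadjusted p of 0.166, and 0.0093 with the block (adjusted p = 0.734 and 0.166 in limma). Without control replicate 3 it was 0.35.

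Psat1, which encodes the aminotransferase of serine synthesis, was at 5.83, 6.89 and 5.83 in activated and 5.27, 6.44 and 5.57 in control cultures. Shmt2, the mitochondrial serine hydroxymethyltransferase, was at 6.19, 7.18 and 6.90 in activated and 6.15, 6.74 and 6.36 in control cultures. Both overlapped between the groups, with differences of 0.42 ± 0.41 and 0.34 ± 0.32 (SE). Without activated replicate 2 these were 0.07 and 0.13. Pair differences were 0.56, 0.44 and 0.27 for Psat1 and 0.03, 0.44 and 0.55 for Shmt2.

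**Figure D4:**
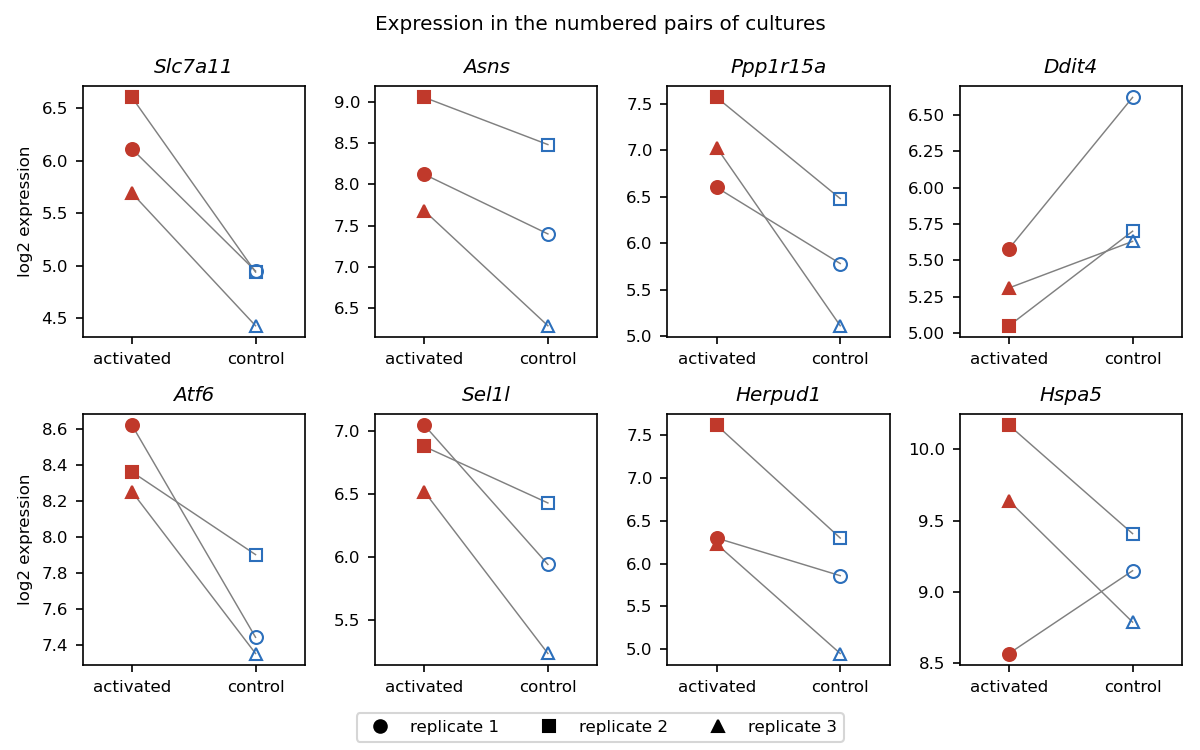
Log2 expression (vertical axis, own scale for each gene) of 8 stress response genes in activated cultures at left and control cultures at right of each panel, with lines joining cultures of the same replicate number. Lines slope down to the control in all 3 pairs for Slc7a11, Asns, Ppp1r15a, Atf6, Sel1l and Herpud1 and up for Ddit4, while for Hspa5 pair 1 runs opposite to pairs 2 and 3.

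Stress effectors and feedback genes were mixed, with 5 of 6 higher and 1 lower. Ppp1r15a encodes GADD34, the subunit that directs a phosphatase to eIF2alpha and restores translation. It was at 6.60, 7.57 and 7.03 in activated cultures, against 5.78, 6.48 and 5.11 in control cultures, and the groups did not overlap. Its difference was 1.28 ± 0.41 (SE; limma, adjusted p = 0.485), 1.12 after quantile normalization and 0.93 without control replicate 3. Ddit4 encodes REDD1, an inhibitor of mTORC1 signalling, and was at 5.58, 5.05 and 5.31 in activated cultures and at 6.62, 5.70 and 5.63 in control cultures. It was the member for which every activated array lay below every control array (1 of 35, against 7.40% of all genes). Activated replicate 1 and control replicate 3 were nearly equal, and the difference was -0.67 ± 0.32 (SE; limma, adjusted p = 0.667), or -0.35 without control replicate 1.

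Sesn2, another inhibitor of mTORC1 signalling, was at 4.27, 5.67 and 5.32 in activated and 3.85, 4.99 and 4.91 in control cultures. Each activated array exceeded the control array of the same number, by 0.42, 0.68 and 0.41. The unadjusted p in limma was 0.302 without and 0.0374 with the block. Trib3, a pseudokinase that restrains ATF4 and CHOP, was at 4.55, 4.62 and 4.42 in activated and 3.97, 3.92 and 4.51 in control cultures. Control replicate 3 alone lay within the activated range, and the difference was 0.40 with it and 0.59 without it. Chac1, a glutathione-degrading enzyme, was at 5.38, 6.26 and 5.96 in activated and 5.79, 5.42 and 5.74 in control cultures. Vldlr, a lipoprotein receptor, was at 5.01, 4.96 and 3.35 in activated and 4.43, 3.25 and 3.96 in control cultures. For Chac1 and Vldlr the pairs disagreed in sign, and the differences of 0.21 ± 0.28 and 0.56 ± 0.51 (SE) were within the spread between cultures.

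ER-associated degradation, which extracts misfolded proteins for the proteasome, had 3 of 4 members higher. Sel1l, the adaptor of the HRD1 ligase complex, was at 7.05, 6.88 and 6.52 in activated cultures, against 5.94, 6.43 and 5.23 in control cultures. The groups did not overlap, although activated replicate 3 exceeded control replicate 2 only narrowly, and the difference was 0.95 ± 0.34 (SE; limma, adjusted p = 0.558), or 0.63 without control replicate 3. Herpud1, a membrane protein of the same complex, was at 6.30, 7.62 and 6.23 in activated and 5.86, 6.30 and 4.95 in control cultures. Activated replicate 2 was the highest and control replicate 3 the lowest array, and the difference of 1.01 ± 0.48 (SE) was 0.56 without activated replicate 2 and 0.64 without control replicate 3. Its unadjusted p was 0.072 and, with the block, 0.00703. Syvn1, which encodes the HRD1 ligase itself, differed by 0.31 ± 0.28 and was higher in all 3 pairs (0.04, 0.55 and 0.33). Edem1, which directs glycoproteins to degradation, was at 5.06, 4.93 and 5.15 in activated and 5.08, 5.54 and 4.79 in control cultures, with the activated arrays inside the control range.

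The ER chaperones and their cochaperones showed no separation of the groups in any of 11 genes. Full separation was uncommon over the array, with 5.40% of all genes above and 7.40% below. Hspa5, which encodes BiP, the main chaperone of the ER lumen and the usual readout of ATF6 activity, was at 8.57, 10.17 and 9.64 in activated cultures and at 9.15, 9.41 and 8.79 in control cultures. Activated replicate 1 was the lowest and activated replicate 2 the highest of all arrays, and the pair differences were -0.58, 0.77 and 0.85. Its difference of 0.35 had a 95% interval of -0.63 to 1.33 and was -0.03 after quantile normalization and -0.12 after cyclic loess. Hsp90b1, encoding GRP94, was at 10.47, 10.75 and 10.80 in activated and 10.72, 11.14 and 10.63 in control cultures. Canx, the membrane lectin calnexin, was at 9.95, 10.09 and 10.16 in activated and 10.25, 10.50 and 10.03 in control cultures. For both genes pairs 1 and 2 were lower and pair 3 higher in activated cultures, with differences of -0.16 and -0.20 in the deposited values. After quantile normalization these became -0.50 and -0.58, with unadjusted p values of 0.0354 and 0.0329 in limma. Calr, the soluble lectin calreticulin, was at 9.11, 9.75 and 9.72 in activated and 9.58, 10.01 and 8.73 in control cultures. Its difference was 0.09 in the deposited values and -0.26 after quantile normalization.

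Among the J-domain cochaperones Dnajb9, an inducible partner of BiP that restrains IRE1, had the largest difference of the group, 1.33 ± 0.82 (SE). Its values were 7.80, 7.69 and 7.41 in activated and 7.09, 7.65 and 4.16 in control cultures. The difference rested on control replicate 3 and was 0.26 without it. Dnajb11, which brings unfolded proteins to BiP, differed by 0.58 ± 0.32, with pair differences of -0.04, 0.74 and 1.03. Dnajc3, the cochaperone p58IPK, was at 9.20, 8.78 and 8.43 in activated and 8.94, 8.72 and 7.52 in control cultures, and its difference of 0.41 became -0.03 without control replicate 3. The remaining chaperone genes overlapped widely. Sdf2l1, a partner of Dnajb11, differed by 0.19 ± 0.33 and Hyou1, the nucleotide exchange factor GRP170, by 0.29 ± 0.26. Manf and Creld2, both secreted and induced by ER stress, differed by -0.02 ± 0.62 and 0.04 ± 0.29.

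Of the disulfide exchange enzymes, Ero1a, the oxidase that recharges protein disulfide isomerases, was at 6.73, 6.98 and 6.88 in activated and 5.84, 6.83 and 6.16 in control cultures. Control replicate 2 reached into the activated range, all 3 pairs were higher, and the difference was 0.59 ± 0.29 (SE), with an unadjusted p of 0.0828 and, with the block, 0.040. In the deposited values the differences of the isomerase genes were nearer to 0. Pdia3 differed by -0.05 ± 0.41, Pdia4 by 0.01 ± 0.30 and Pdia6 by -0.19 ± 0.48. After quantile normalization they were at -0.36, -0.26 and -0.52, and Ero1a was at 0.38. Pdia6 was at 6.72, 8.70 and 8.05 in activated and 7.88, 8.33 and 7.85 in control cultures, with activated replicate 1 far below the other arrays. The 95% intervals ran from -0.68 to 0.70 for Pdia4 and from -1.32 to 0.94 for Pdia6.

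**Figure D5:**
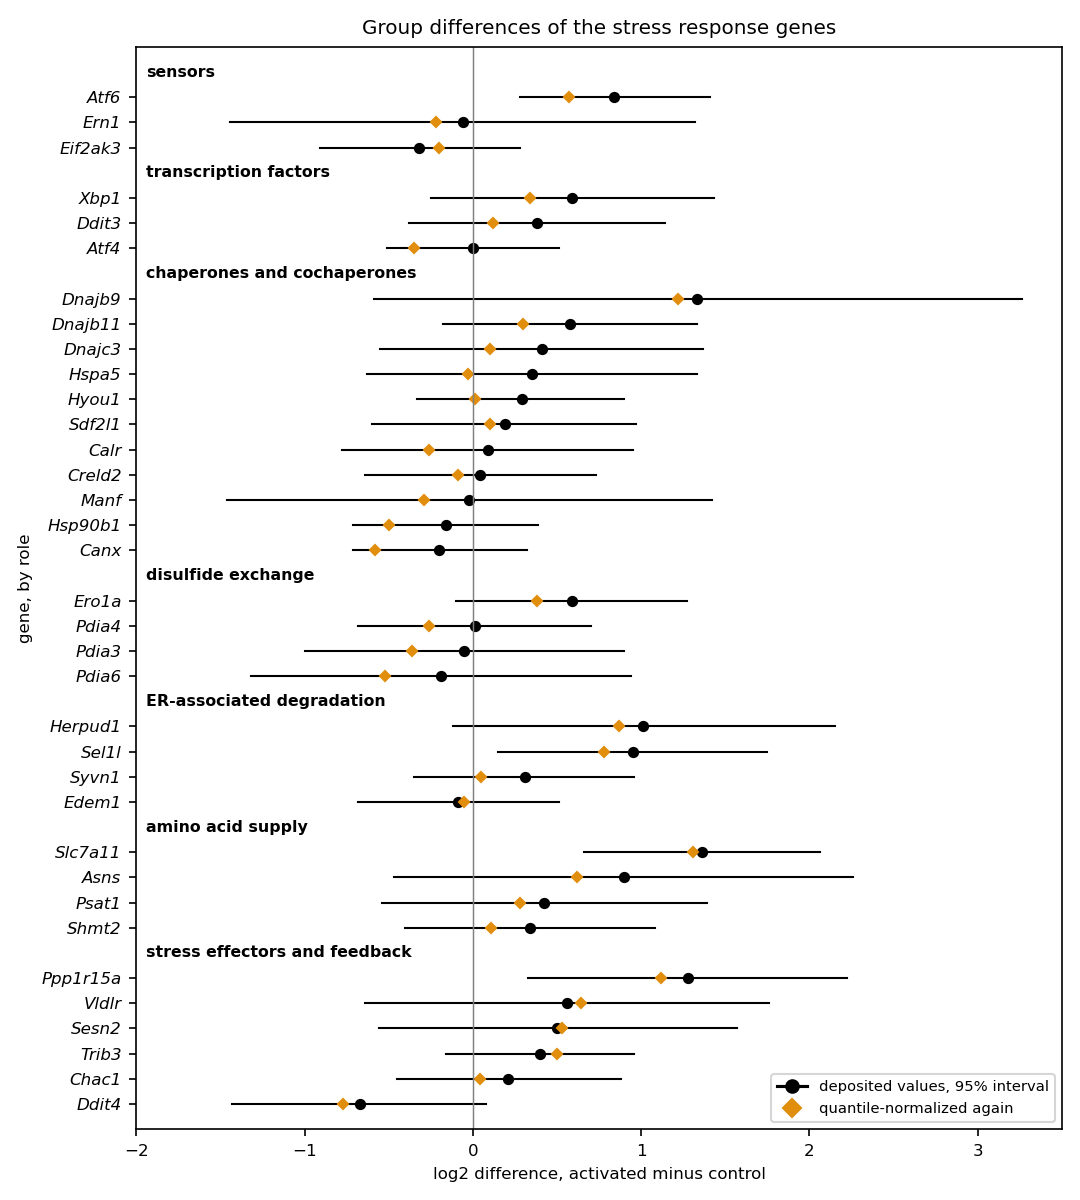
Log2 difference of activated minus control cultures (horizontal axis) for each measured stress response gene, by role. Black points with 95% intervals are from the deposited values, and orange diamonds from the values after quantile normalization again. The intervals of Atf6, Sel1l, Slc7a11 and Ppp1r15a lie above 0, and the diamonds of the chaperones Hsp90b1, Canx and Calr lie left of their points, at -0.50, -0.58 and -0.26.

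A wider list of 103 other genes of these pathways was measured in 98. In limma 0 passed an adjusted p of 0.05, while at an unadjusted p under 0.05 there were 15 higher and 1 lower in activated cultures, and 26 higher and 2 lower with the block. The shares of all genes at that level were 4.44% and 3.42%, and 9.63% and 7.01% with the block. Of the brighter genes, fitted alone and without the block, 6.63% were higher and 3.38% lower at that level. In all, 74 were higher and 24 lower, with a median log2 difference of 0.31, where 40.3% of all genes and 58.7% of the brighter ones were higher. Scaling moved this count too: 64 of 98 were higher after quantile normalization (median 0.14) and 64 after cyclic loess (median 0.13), while 83 were higher after median centring (median 0.43). In the same order, 48.2%, 49.6% and 55.7% of all genes were higher. Of the brighter genes it was 49.6%, 50.5% and 67.9%. By role, the unadjusted count was 4 higher of 13 transcription factors and proteases, 4 higher and 1 lower of 28 genes for amino acid supply and tRNA charging, and 3 higher of 14 degradation genes. It was 2 higher of 10 eIF2alpha kinases and eIF2 machinery genes, 2 higher of 9 stress effectors and 0 of 24 genes for ER folding and disulfide exchange. The 3 higher genes with the smallest p were Atf3, Slc3a2 and Stc2. Atf3, a stress-induced transcription factor downstream of ATF4, was at 5.95, 6.05 and 5.51 in activated cultures and at 4.79, 4.62 and 4.51 in control cultures, a difference of 1.20 ± 0.23 (SE; limma, adjusted p = 0.256). Slc3a2, the heavy chain that pairs with Slc7a11 in the exchanger, was at 7.95, 8.52 and 8.40 in activated and 6.81, 7.50 and 6.57 in control cultures (difference 1.33 ± 0.31; limma, adjusted p = 0.325). The secreted glycoprotein gene Stc2 was at 5.39, 6.15 and 4.92 in activated and 4.16, 4.36 and 3.94 in control cultures. For these 3 genes, picked for their small p, all activated arrays lay above all control arrays. That was so for 18 of the 98 genes, with 1 below, against 5.40% of all genes above and 7.40% below.

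The 3 lower genes of the wider list with the smallest p were Mthfd1l, Shmt1 and Eif2ak2. Mthfd1l, a mitochondrial folate enzyme, was at 4.41, 4.45 and 5.57 in activated and 5.44, 5.86 and 6.23 in control cultures, a difference of -1.04 ± 0.38 (SE). Shmt1, the cytosolic counterpart of Shmt2, differed by -0.58 ± 0.27 with every activated array below every control array. Eif2ak2, the eIF2alpha kinase that responds to double-stranded RNA, differed by -0.55 ± 0.27 with overlapping groups.

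Muscle and cell cycle transcripts differed between the same groups. Of 8 genes of differentiated muscle 7 were higher in activated cultures (median log2 difference 1.52), with array means over the 8 genes of 9.09 to 9.80 in activated and 7.27 to 8.55 in control cultures. All 5 measured genes of cycling cells were lower (median -1.95), with array means of 5.31 to 6.71 in activated and 7.61 to 8.18 in control cultures. The part of these differences in the values of the stress response genes was not tested. Array means of the 9 myoblast markers were 8.46 to 9.24 in activated and 7.78 to 8.49 in control cultures, with 8 of 9 higher. Myog differed by 2.22, Des by 1.56 and Cdh15 by 1.03. Myod1 and Myf5 differed by 0.16 and 0.38, and Pax7 was the lower one at -0.60, each with overlapping groups. The higher array means were thus not shared by all markers of the list. After quantile normalization 7 of 9 were higher, and Myod1 was at -0.20. Markers of other cells that such cultures could hold were also read. Lower values were general among dim genes, at 78.1% of those below the median level and 59.7% of all genes in the deposited values, and at 53.2% and 51.8% after quantile normalization. Of 6 leukocyte genes 5 were lower, with array means of 3.66 to 3.95 in activated and 3.79 to 4.51 in control cultures. Of 6 endothelial genes 5 were lower, with means of 2.97 to 3.20 in activated and 3.12 to 3.41 in control cultures. For 6 fibroblast genes, 4 of them lower, the means were 4.29 to 4.66 in activated and 4.49 to 4.64 in control cultures. Single fibroblast genes went both ways, with 1.17 for Thy1 and -1.11 for Fbln1. Smooth muscle and pericyte genes, 3 of 5 lower, had means of 5.86 to 6.46 in activated and 6.0 to 6.39 in control cultures. These means joined opposite differences, of -1.78 for Rgs5 and 1.08 for Acta2. Adipocyte genes, 2 of 3 lower, had means of 3.04 to 3.30 in activated and 3.06 to 3.51 in control cultures. All 4 plasma cell genes, markers of a secretory cell that relies on this response, were lower, with means of 3.30 to 3.84 in activated and 3.74 to 4.08 in control cultures. No detection calls were used, so these values do not show which of the markers were present. After quantile normalization 5 of 6 leukocyte and 5 of 6 endothelial genes were lower, as were 3 of 6 fibroblast and 2 of 4 plasma cell genes.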

How the data were processed

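Expression was measured on 6 arrays, 3 activated and 3 control. The authors deposited log2 expression values per gene-level probe set, and RMA and Partek are named for them by the submitters' processing notes, without version or role. The sources used here do not give the array design or detection calls, and the number of arrays limits the precision. Of 24479 probe sets 23281 had 1 symbol in the platform annotation and 1198 none. Where 2 symbols had several probe sets, the brightest was used.

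limma 3.58.1 in R 4.3.3 fitted group as the only term to 23279 genes, two-sided, with Benjamini-Hochberg adjustment over all of them and no filter or pseudocount. The fit was tested on simulated data. Errors are SEs from limma and intervals are at 95%. Alternatives were a replicate block, quantile normalization, median centring, cyclic loess, a filter on dim genes and the omission of each array. Fits that left out each whole numbered pair were added after the data had been seen and are not reported here. Deviations from the group means correlated at 0.38, 0.49 and 0.45 in the numbered pairs, so the numbers, which come from the sample titles, were taken to pair the arrays in the replicate block. The main fit and the SEs and intervals given here do not use that pairing. Correlations between arrays of different number are not given, so array-wide scaling is not set apart from pairing. P-values reflect only the spread among these cultures, which may be technical. Members, role groups, the wider list, markers and motifs were chosen with earlier results of these data known. The text names every measured member and, of the wider list, the 3 genes with the smallest p in each direction. Genes of the wider list and of the markers beyond those counted as measured were not analysed here.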

Additional observations from a re-analysis of the deposited data

How the results depend on the processing

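No member passed an adjusted p of 0.05 under any of the alternatives listed above. The 4 members Slc7a11, Atf6, Ppp1r15a and Sel1l kept higher values in activated cultures under each of them. Of these 4 members, Slc7a11 had an unadjusted p under 0.05 in limma in each of the listed settings. Sel1l did not without activated replicate 1, activated replicate 2, control replicate 1 or control replicate 3, Ppp1r15a did not without activated replicate 2, and Atf6 did not after cyclic loess. With the replicate block 31 genes passed adjustment and 3875 had an unadjusted p under 0.05, against 0 and 1830 without it, and 9 against 4 members did. The block changed no call of a member after adjustment. Quantile normalization with the block gave 3202 genes and 10 members at that level and a member median of 0.10, which was 0.10 with quantile normalization alone too, against 0.34. With the dim-gene filter, which tests fewer genes, 1166 genes and 4 members were at that level. Of the genes kept, 6.63% were higher and 3.38% lower at that level, against 4.44% and 3.42% of all genes in the main fit. Leaving out each array in turn gave 0 to 28 genes past adjustment (28 without activated replicate 3) and 907 to 3066 at the unadjusted level (907 without activated replicate 2, 3066 without control replicate 2). Members at that level then numbered 2 to 8 (2 without activated replicate 2, 8 without control replicate 2). Where these values moved with a normalization or an array, the cause was not tested.

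Signs turned for some members. After quantile normalization, with and without the block, Atf4 was at -0.35, Hspa5 at -0.03, Creld2 at -0.09, Calr at -0.26 and Pdia4 at -0.26. After cyclic loess Atf4 was at -0.50, Hspa5 at -0.12, Hyou1 at -0.04, Dnajc3 at -0.01, Creld2 at -0.04, Calr at -0.40 and Pdia4 at -0.33. After median centring Ern1 was at 0.07, Manf at 0.11, Pdia3 at 0.07 and Edem1 at 0.04. Without single arrays the range was -0.62 to 0.49 for Ern1, -0.12 to 0.13 for Atf4, -0.01 to 0.79 for Hspa5, -0.03 to 0.68 for Dnajc3, -0.10 to 0.46 for Sdf2l1 and -0.58 to 0.42 for Manf. It was -0.13 to 0.33 for Creld2, -0.27 to 0.37 for Calr, -0.49 to 0.32 for Pdia3, -0.15 to 0.29 for Pdia4, -0.63 to 0.36 for Pdia6 and -0.26 to 0.11 for Edem1.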
